A study of Sus scrofa with 22 samples.

Results

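The genes described here encode the proteasome and the ubiquitin-conjugating enzymes, measured in blood mononuclear cells of mini pigs. They are the genes whose symbol starts with PSMA, PSMB, PSMC, PSMD, PSME, PSMF, PSMG or UBE2 and whose probe set carried that symbol alone, with UBE2C left out. Where a gene had several probe sets, the one with the highest mean over all arrays was used. The rule used no comparison between groups and gave 63 of the 6765 genes named on the array, 40 of the proteasome and 23 ubiquitin-conjugating (E2) enzymes. Of these, 48 had 1 probe set and 15 had several. One gene, UBE2QL1, had a mean log2 intensity of 3.77, did not pass the filter on low values, and was not tested, which left 62. PSMB9, PSMC4, PSMD7, PSMD9, PSMG2 and UBE2L6 were not analysed here.

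The study asked whether resveratrol, a plant polyphenol, changes gene expression in blood cells of pigs on a fatty diet. RNA of peripheral blood mononuclear cells, the lymphocytes and monocytes left after a density gradient, was hybridised to 22 Affymetrix porcine arrays, 1 per blood sample. At time 0, before the diets, 10 arrays came from 5 females and 5 males of the control group. After 9 months, each of 3 diets had 2 females and 2 males: a control chow with 5% beef tallow, a high-fat chow with 20%, and that high-fat chow plus a daily 8 mg of resveratrol per kg of body weight. The labels number the animals, so the arrays are separate blood samples of 20 pigs, with pigs 8 and 25 measured at both times, and 8 of the 10 time 0 pigs measured at that time alone. All animals were of the breed labelled Mini Pig, with no genotype, modification or age given. The pigs were older at 9 months, so age, time on the chow and the processing of the arrays at each time cannot be told apart.

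The proteasome is the protease that degrades proteins tagged with ubiquitin. Its barrel-shaped core stacks rings of alpha and beta subunits, and PSMB5, PSMB6 and PSMB7 are the beta subunits that cut. In lymphocytes, and in other cells exposed to interferon gamma, PSMB8, PSMB9 and PSMB10 take their places and form the immunoproteasome, which yields peptides well suited to MHC class I. A regulatory particle with ATPase (PSMC) and other (PSMD) subunits recognises and unfolds substrates, the PSME proteins are alternative activators, and E2 enzymes pass ubiquitin or a related protein on towards the substrate.

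All values are log2 of the deposited intensity, and a difference of 1 is a doubling. Levels of different genes come from different probes and are not set against each other. Between arrays, correlations over all probe sets ran from 0.971 to 0.996. T cell markers (9 of 10 measured) had array means of 10.1 to 11.0 and monocyte markers (8 of 12) of 8.63 to 9.61, while granulocyte markers (5 of 9) had 5.11 to 6.68. No marker list was at 0, but the erythroid list (3 of 6) had means of 8.13 to 11.0, although red cells are not mononuclear cells. The poly-A controls, spiked into the RNA before labelling, averaged 7.98 ± 0.62 (SD, n = 10) at time 0 and 9.14 ± 0.87 (SD, n = 4) in the 9-month controls. They averaged 9.91 ± 0.75 on the high-fat diet and 9.08 ± 0.66 with resveratrol (SD, n = 4 in each). This technical measure thus differed between the times, and among the diets it was highest on the high-fat diet. The actin probe sets, a sign of RNA quality, differed between the 3' and 5' ends by 1.42 ± 0.50 (SD, n = 10) at time 0. At 9 months this was 1.95 ± 0.65 in controls, 2.36 ± 0.56 on the high-fat diet and 1.86 ± 0.67 with resveratrol (SD, n = 4 in each). Over all arrays of 9 months it was 2.06 ± 0.61 (SD, n = 12). The same measure for GAPDH was 0.50 ± 0.19 (SD, n = 10) at time 0 and 0.47 ± 0.16 (SD, n = 4) in the 9-month controls. It was 0.53 ± 0.14 (SD, n = 12) over all arrays of 9 months. The part of RNA quality in the time differences was not tested. In bulk RNA, fewer cells of a type and less RNA per cell cannot be told apart.

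The immunoproteasome subunits were lower in the 9-month controls than at time 0, and their ranges overlapped between the 3 diets. PSMB10, the immunoproteasome counterpart of PSMB7, read 9.44 at its lowest, 9.98 at the median and 10.58 at its highest in the 10 time 0 arrays. In the 9-month controls it read 9.09 and 9.07 in the females and 8.99 and 9.36 in the males. It read 9.02, 9.11, 9.05 and 9.18 on the high-fat diet and 9.06, 9.08, 9.33 and 9.27 with resveratrol. Each of the 12 arrays of 9 months therefore lay below every array of time 0, while the 3 diets overlapped. The difference between 9-month controls and time 0 was -0.87 (SE 0.14, a 1.82-fold lower level), with a limma adjusted p of 7.43e-05. With all 3 diets averaged it was -0.86 (SE 0.10, limma adjusted p = 6.94e-07), a comparison that shares the time 0 arrays and the control arrays with the first.

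PSMB8, the counterpart of PSMB5, ran from 11.17 through a median of 11.69 to 12.22 at time 0. It read 10.59, 10.97, 11.19 and 10.47 in the 9-month controls, 10.91, 11.07, 10.14 and 11.15 on the high-fat diet, and 11.20, 11.16, 10.09 and 10.53 with resveratrol. The lowest values on both high-fat diets were males, and the ranges of the times touched. Control male 16 and resveratrol female 21 stood just above the lowest time 0 array, that of male 25. The 9-month controls differed from time 0 by -0.87 (SE 0.19, limma adjusted p = 0.00137). In the pig gene order of assembly Sscrofa11.1, PSMB8 lies on chromosome 7 between TAP2 and TAP1, the subunits of the transporter that brings peptides to MHC class I. PSMB10 lies on chromosome 6.

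Of the constitutive catalytic subunits, 1 of 3 passed the same test, beside 35.0% of all probe sets. PSMB6 ran from 10.41 through 10.51 to 10.83 at time 0 and read 10.20, 9.92, 10.10 and 10.23 in the 9-month controls. Those groups did not overlap, and the difference was -0.44 (SE 0.09, limma adjusted p = 0.00114). On the high-fat diet PSMB6 read 10.08, 10.22, 10.45 and 10.42, and with resveratrol 9.99, 10.15, 10.34 and 10.37, so 2 high-fat males reached the lower edge of the time 0 range.

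PSMB5 ran from 9.03 through 9.58 to 9.76 at time 0, where the lowest value belonged to female 6. It read 9.54, 9.04, 9.23 and 9.44 in the 9-month controls, 9.48, 9.43, 9.67 and 9.41 on the high-fat diet, and 9.55, 9.60, 9.77 and 9.67 with resveratrol. All groups overlapped with time 0, and the time difference of -0.24 (SE 0.11) had a limma adjusted p of 0.0911. PSMB7 ran from 10.95 through 11.12 to 11.38 at time 0 and from 10.91 to 11.09 in the 9-month controls. Its time difference was -0.15 (SE 0.07, limma adjusted p = 0.114), and its ranges on the high-fat diet (10.87 to 11.12) and with resveratrol (11.00 to 11.15) overlapped with that of the controls.

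**Figure D1:**
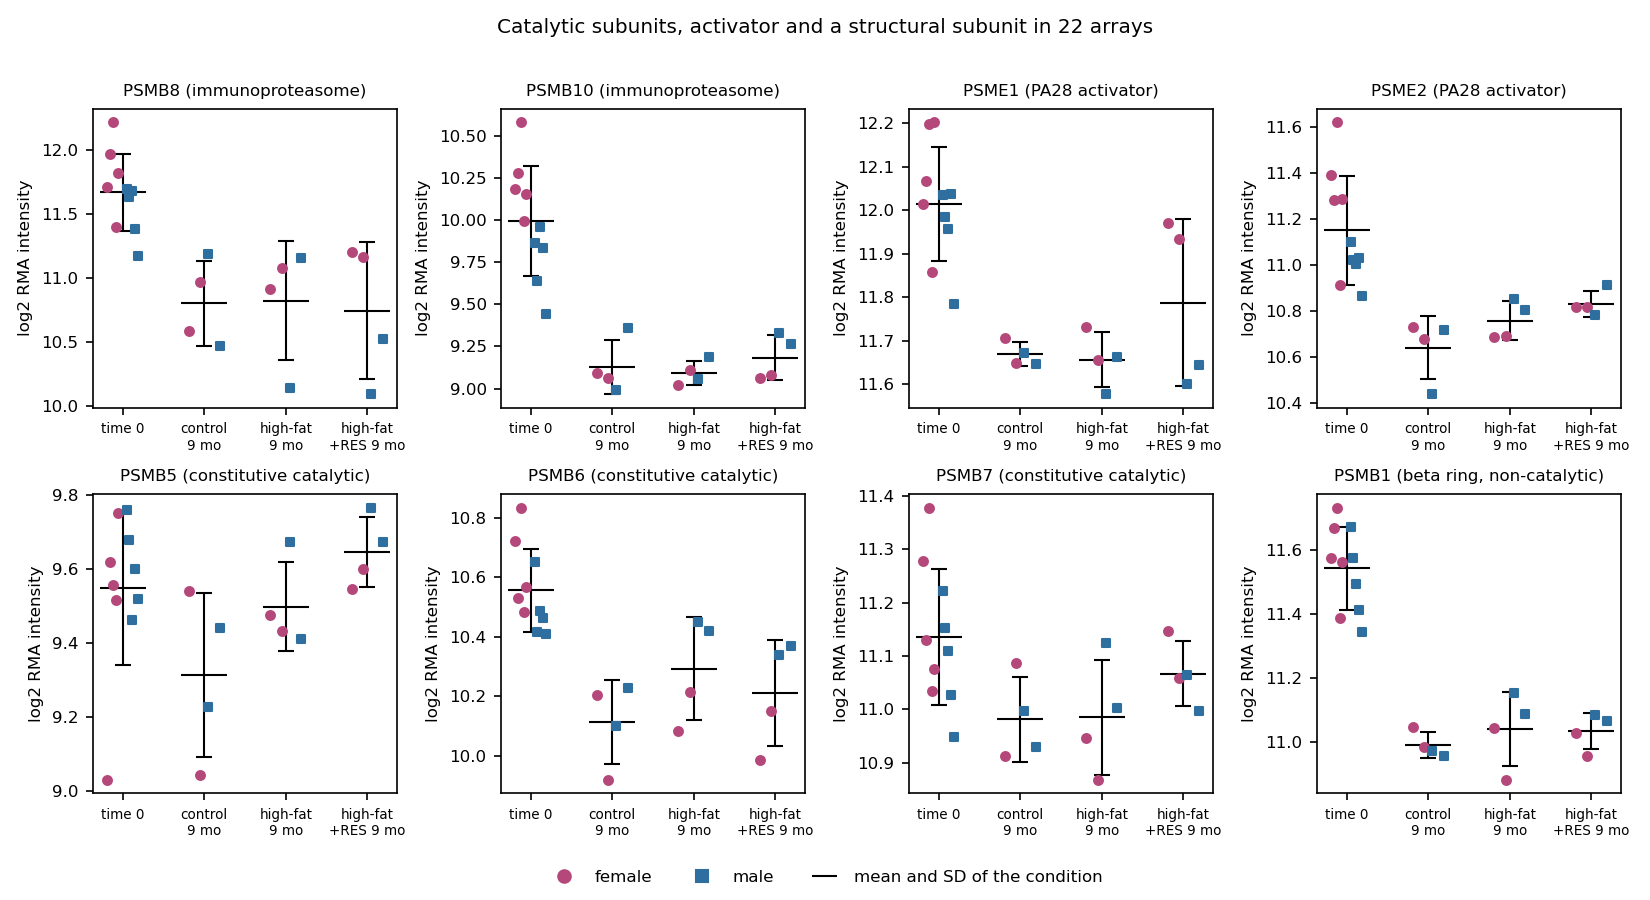
Log2 intensity of 8 proteasome genes in each array (points, by sex) with the mean and SD of each condition, over time 0 and the 3 diets at 9 months. Vertical axes differ between panels. All 12 points of PSMB10 at 9 months lie below its lowest time 0 value of 9.44, while the constitutive subunits PSMB5 and PSMB7 overlap between the times.

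To set both kinds of catalytic subunit side by side within an array, each gene was centred on its mean over the 22 arrays, and the mean of PSMB5, PSMB6 and PSMB7 was subtracted from the mean of PSMB8 and PSMB10. This index, a description with no test, was 0.38 ± 0.25 (SD, n = 10) at time 0, with a range of -0.03 to 0.77. At 9 months the controls had -0.21 ± 0.19, the pigs fed high fat -0.34 ± 0.35 and those given resveratrol as well -0.39 ± 0.27 (SD, n = 4 in each). The highest array of 9 months, control female 8 at -0.04, lay below the lowest of time 0, male 25 at -0.03, by a margin far smaller than the SD of either group. The index thus fell by 0.59 between time 0 and the 9-month controls, more than the SD of either group. Between the diets it differed by -0.13 for high-fat against control, -0.04 for resveratrol against high-fat and -0.17 for resveratrol against control, each less than 1 SD of the groups compared. Leaving out single arrays moved these between -0.21 and 0.04, between -0.21 and 0.07, and between -0.26 and -0.06, so the sign of the first and second turned.

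**Figure D2:**
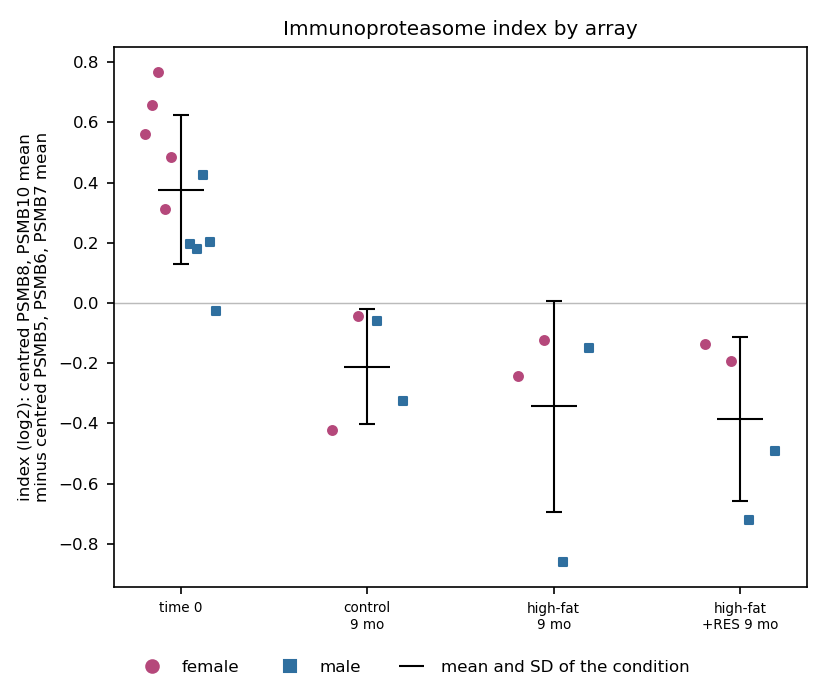
The immunoproteasome index (mean centred log2 of PSMB8 and PSMB10 minus that of PSMB5, PSMB6 and PSMB7, vertical axis) in each array, by condition and sex, with mean and SD. Time 0 averages 0.38 and the diets at 9 months average between -0.39 and -0.21, with male 23 on the high-fat diet lowest at -0.86.

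Across all the genes, 25 of 62 (40.3%) were lower and 7 (11.3%) higher in the 9-month controls than at time 0, at a limma adjusted p under 0.05. Over all 17240 probe sets tested, 35.0% passed, 19.1% lower and 15.8% higher. The median difference of the 62 genes was -0.20, against -0.01 over all probe sets. In 15 of the 62 every 9-month control array lay below every time 0 array, and in 2 every one lay above; over all probe sets 8.64% lay wholly below and 6.54% wholly above. With the 3 diets averaged, 32 of 62 were lower and 11 higher, against 26.6% and 23.0% of all probe sets (49.6% in all). In that comparison 5 genes, PSMB1, PSMB10, PSMD1, PSMD14 and UBE2V1, lay wholly below time 0 and 1, PSMD12, wholly above, against 3.72% and 3.35% of all probe sets.

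The remaining core subunits were lower almost throughout. All 4 non-catalytic beta subunits were lower at 9 months, by a median of -0.60, and 3 lay wholly below time 0. Over all probe sets 19.1% were lower and 8.64% lay wholly below. PSMB1 ran from 11.34 through 11.57 to 11.73 at time 0 and read 11.05, 10.98, 10.97 and 10.96 in the 9-month controls. The groups stood well apart, with a difference of -0.55 (SE 0.07, limma adjusted p = 1.55e-05). PSMB2, whose mean went from 10.95 to 10.31, differed by -0.64 (SE 0.11, limma adjusted p = 0.000275), and PSMB4 by -0.32 (SE 0.10, limma adjusted p = 0.0142), both with no overlap. PSMB3 had the numerically largest difference, -0.92, but also the widest error (SE 0.33, limma adjusted p = 0.0360). Its time 0 arrays ran from 8.16 to 9.77 and its 9-month controls from 7.47 to 8.90, so they overlapped. The PSMB3 call was lost without control male 16 (-0.56, adjusted p = 0.224) or female 8 (adjusted p = 0.0919), or without the time 0 arrays of female 8 (adjusted p = 0.0577) or female 17 (adjusted p = 0.0538).

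The alpha ring, which forms the gate of the core, showed smaller and more even differences. Of its 7 genes, PSMA1 to PSMA6 were lower at 9 months, beside 19.1% of all probe sets. PSMA7 had -0.24 with a limma adjusted p of 0.0574. All 7 values lay between -0.32 (PSMA5) and -0.22 (PSMA1), with a median of -0.24. PSMA2 alone among them had no overlap between the groups, with means of 12.00 and 11.74, while 8.64% of all probe sets lay wholly below.

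The regulatory particle was mixed, and its calls stand beside 19.1% of all probe sets lower and 15.8% higher. Of its 5 ATPases tested, PSMC5 was lower (-0.24, SE 0.07, limma adjusted p = 0.00966) and PSMC2 higher (0.23, SE 0.09, limma adjusted p = 0.0441). The PSMC2 probe sets disagree: the other 2, less bright, gave -0.44 (limma adjusted p = 0.00281) and -0.28 (limma adjusted p = 0.0691), and the mean of all 3 gave -0.16 (limma adjusted p = 0.197). The PSMC2 call was also lost without any 1 of 8 of the 14 arrays, with adjusted p up to 0.228 without control female 8. PSMC1, PSMC3 and PSMC6 had -0.09, -0.18 and -0.20 and did not pass.

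Among the 10 other subunits of the regulatory particle, 3 were lower and 1 higher, beside 19.1% and 15.8% of all probe sets. PSMD1, the large scaffold of the base, ran from 9.41 through 9.55 to 10.02 at time 0 and read 8.83, 9.00, 8.73 and 8.98 in the 9-month controls. All 12 arrays of 9 months lay below time 0, and the control difference was -0.75 (SE 0.10, limma adjusted p = 1.08e-05, the smallest among the 62 genes). A second PSMD1 probe set gave -0.27 (limma adjusted p = 0.0331). PSMD14, the deubiquitinase that strips ubiquitin from substrates as they enter, ran from 9.90 through 10.23 to 10.45 at time 0 and read 9.60, 9.46, 9.34 and 9.75 in the 9-month controls. It too had no overlap, with a difference of -0.67 (SE 0.10, limma adjusted p = 4.01e-05). PSMD13 of the lid had -0.23 (limma adjusted p = 0.00859).

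PSMD12, another lid subunit, went the other way. It ran from 9.19 through 9.30 to 9.78 at time 0 and read 10.10, 10.16, 9.87 and 9.94 in the 9-month controls. On the high-fat diet it read 10.13, 10.08, 10.21 and 10.23, and with resveratrol 9.88, 9.93, 9.99 and 10.22. Every array of 9 months was above every array of time 0, and the control difference was 0.61 (SE 0.09, limma adjusted p = 5.34e-05). Thus PSMD12 and PSMD14, both subunits of the lid, differed between the times by similar sizes in opposite directions.

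The activators split by kind. PSME1 and PSME2, the interferon-inducible pair that caps the core without ATP, were both lower. PSME1 ran from 11.78 through 12.03 to 12.20 at time 0 and read 11.71, 11.65, 11.67 and 11.65 in the 9-month controls, a difference of -0.35 (SE 0.07, limma adjusted p = 0.00107). PSME2 ran from 10.87 through 11.07 to 11.62 and read 10.73, 10.68, 10.44 and 10.72, a difference of -0.51 (SE 0.10, limma adjusted p = 0.000730). Neither overlapped between time 0 and the 9-month controls, but with resveratrol PSME1 reached 11.97 and 11.93 in the females, inside the time 0 range. PSME2 reached 10.91 in resveratrol male 5, also inside its time 0 range. In the pig gene order they lie on chromosome 7 with EMC9 between them, and IRF9 is the other neighbour of PSME2.

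The nuclear activator PSME3 had 0.04 (SE 0.15, limma adjusted p = 0.859) and PSME4, another nuclear activator, 0.17 (SE 0.09, limma adjusted p = 0.129). PSMF1, a proteasome-binding inhibitor, was lower at -0.77 (SE 0.17, limma adjusted p = 0.00147), and its second probe set gave -0.43 (limma adjusted p = 0.000687). Its time 0 arrays ran from 8.20 to 9.58 and its 9-month controls read 8.43, 7.81, 8.44 and 8.33, so they overlapped at the low end of time 0. The assembly chaperones were divided, with PSMG1 higher (0.30, limma adjusted p = 0.0228), PSMD10 lower (-0.20, limma adjusted p = 0.0393, but -0.03 and 0.657 with the 3 diets averaged), and PSMD5 and PSMG3 at -0.18 and 0.22 without passing. The PSMG1 call was lost without control female 8 (adjusted p = 0.0915) or male 25 (adjusted p = 0.0604).

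**Figure D3:**
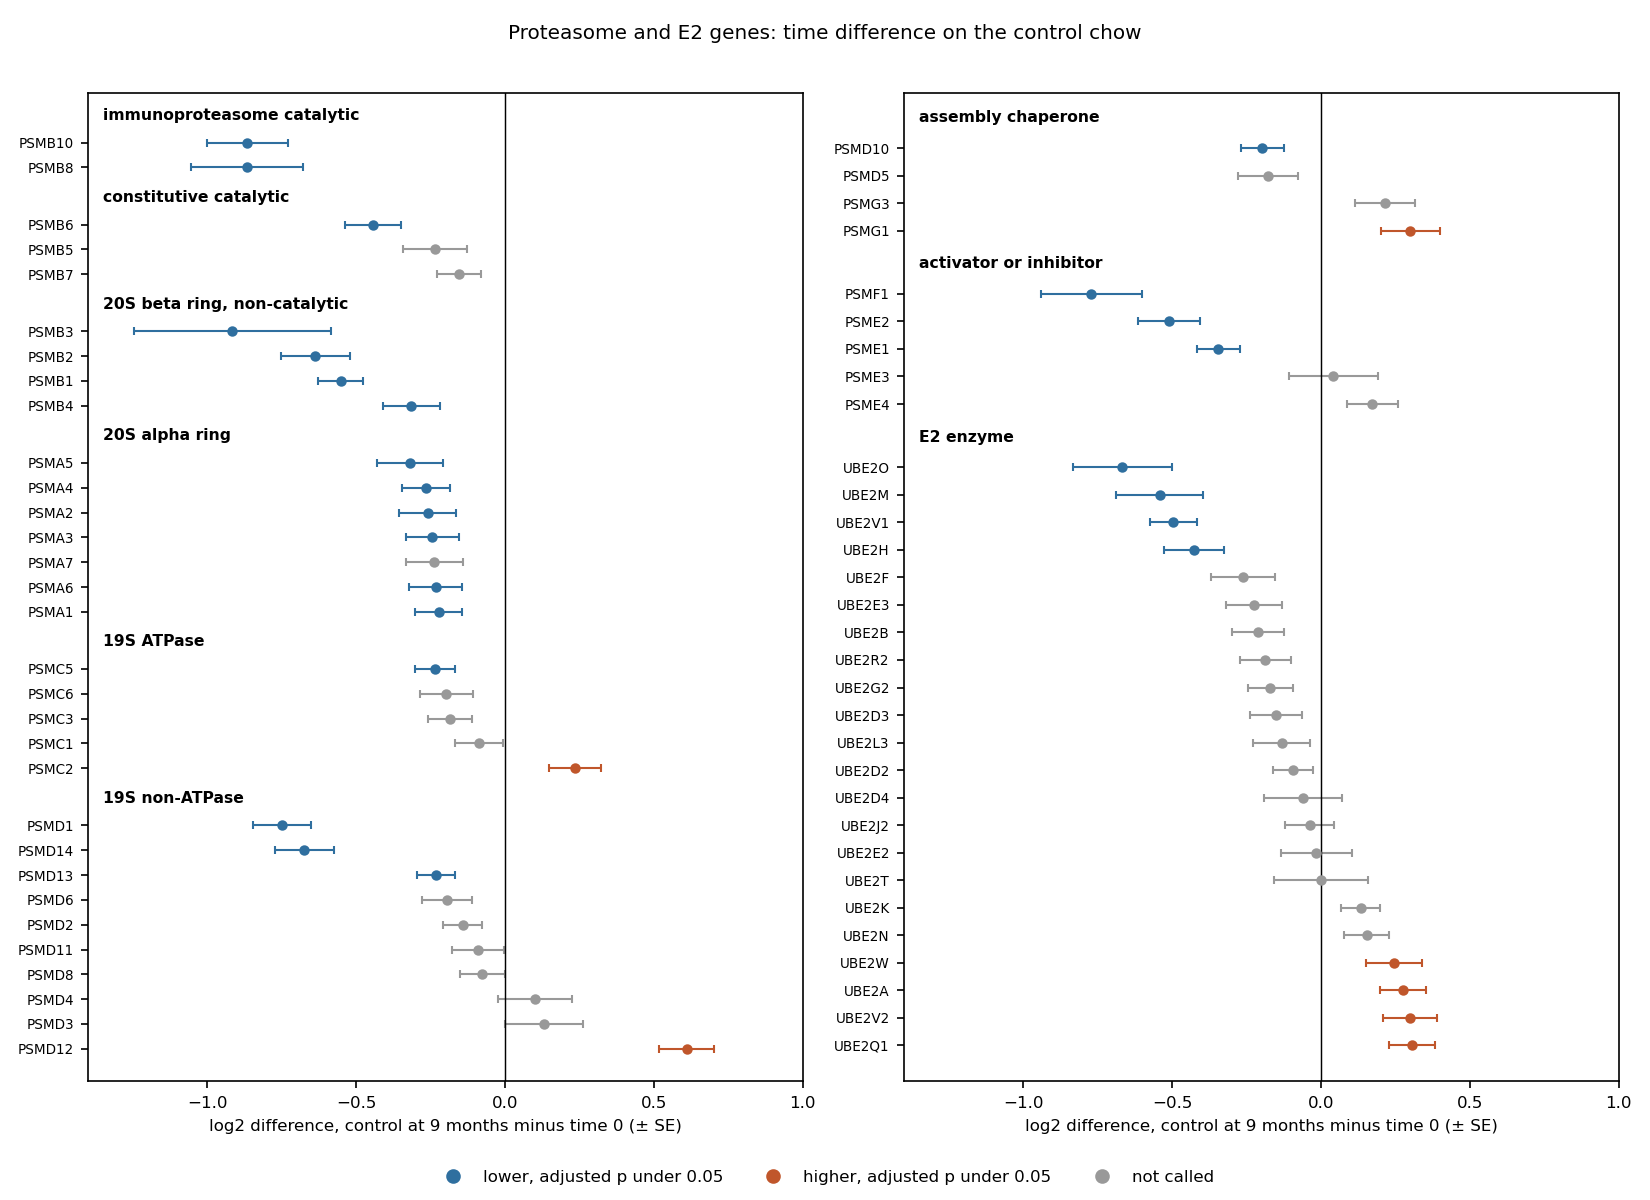
Difference in log2 intensity between 9-month controls (n = 4) and time 0 (n = 10) for each of the 62 tested genes with its standard error, grouped by role (19S is the regulatory particle and 20S the core); blue and orange points pass a limma adjusted p of 0.05 and grey ones do not. The beta and alpha rings lie to the left of 0, with a median of -0.60 for the non-catalytic beta subunits, while the regulatory particle and the E2 enzymes fall on both sides.

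Of the 22 E2 enzymes tested, 4 were lower and 4 higher, close to the 19.1% lower and 15.8% higher over all probe sets. Among the 22, 16 had a negative value and 6 a positive one, with a median of -0.11. UBE2V1, a variant without catalytic activity that works with UBE2N, ran from 11.18 through 11.32 to 11.48 at time 0 and read 10.97, 10.63, 10.76 and 10.89 in the 9-month controls. The groups did not overlap, and the difference was -0.50 (SE 0.08, limma adjusted p = 8.34e-05). Its other probe sets gave -0.08 (limma adjusted p = 0.672) and 0.29 (limma adjusted p = 0.0895), so its direction rests on the brightest.

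UBE2V2, the second such partner of UBE2N, was higher at 9 months, with 0.30 (SE 0.09, limma adjusted p = 0.0154) and means of 10.74 and 11.04. UBE2N itself, which builds ubiquitin chains used in immune signalling, had 0.15 (SE 0.08, limma adjusted p = 0.119). UBE2Q1 was higher with no overlap, from a range of 11.47 to 11.76 at time 0 to 12.05, 11.86, 11.93 and 11.88, a difference of 0.31 (SE 0.08, limma adjusted p = 0.00401). UBE2A, an enzyme of DNA damage tolerance, was higher by 0.28 (SE 0.08, limma adjusted p = 0.00803; 0.0508 with the spike-in level as a covariate), while UBE2B, its close relative, had -0.21 (SE 0.09, limma adjusted p = 0.0669). UBE2W, which tags the amino terminus of proteins, had 0.24 at the edge of the threshold (limma adjusted p = 0.0495). The UBE2W call was lost without any 1 of 11 of the 14 arrays, and that of UBE2V2 without control female 8 (0.20, adjusted p = 0.113) or female 18 (adjusted p = 0.0658).

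Among the lower E2 enzymes, UBE2M, which conjugates NEDD8 to cullins, read 8.68, 8.14, 8.66 and 8.46 in the 9-month controls against 8.67 to 9.29 at time 0. The difference was -0.54 (SE 0.15, limma adjusted p = 0.00679), with 1 control array just inside the time 0 range, and the UBE2M call was lost without control female 8 (-0.39, adjusted p = 0.0560). UBE2F, the other NEDD8-conjugating enzyme, had -0.26 (SE 0.11, limma adjusted p = 0.0624). UBE2O and UBE2H, known for their part in maturing red cells, had -0.67 (SE 0.17, limma adjusted p = 0.00406) and -0.43 (SE 0.10, limma adjusted p = 0.00255). A second, dimmer UBE2O probe set gave -0.02 (limma adjusted p = 0.930), and the UBE2O call was lost with both averaged (-0.34, adjusted p = 0.0611) and with the spike-in covariate (-0.47, adjusted p = 0.0753). A second UBE2H probe set gave -0.35 (limma adjusted p = 0.00142). The 3 measured erythroid markers were all lower as well, by a median of -1.27, and their part in these values was not tested.

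Over all probe sets, 19.1% were lower and 15.8% higher in the 9-month controls than at time 0. Other genes of the pathway, taken by symbol, were as follows in that comparison. Of 3 measured factors that act on the proteasome, SEM1 (-0.34) and PAAF1 (-0.67) were lower, and AKIRIN2, which carries proteasomes into the nucleus, was higher (1.04). Of 7 ubiquitin and E1 genes, 1 was lower, UBA2 of the SUMO pathway (-0.40), and of 3 shuttle and unfoldase genes VCP was lower (-0.46). Of 8 ubiquitin-like proteins, SUMO3 (-0.44) and NEDD8 (-0.39) were lower and UFM1 was higher (0.29).

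Genes of MHC class I processing and of the interferon response are given beside the 19.1% of all probe sets that were lower. Of 7 measured genes of MHC class I processing, 3 were lower, TAP1 (-0.36), TAPBP (-0.43) and PDIA3 (-0.52), with a median of -0.21. Of 14 measured interferon response genes, 3 were lower, IRF9 (-0.58), GBP1 (-1.07) and GBP2 (-0.74), and 13 had a negative value, with a median of -0.55. Cell type markers moved too: 5 of 9 T cell markers, 2 of 4 NK and cytotoxic markers and the 1 B cell marker were lower, and 2 of 8 monocyte markers were higher. The T cell list averaged 10.6 to 11.0 per array at time 0 and 10.3 to 10.5 in the 9-month controls, and the monocyte list 8.86 to 9.50 and 9.28 to 9.61. The part of cell make-up in the time differences was not tested. With the spike-in level as a covariate, 4893 of the 17240 probe sets passed, against 6026 in the main fit. With this covariate, 20 of the 62 genes were lower and 2 higher, and 22 of the 32 calls were shared. PSMG1, UBE2V2, UBE2A, UBE2W, PSMC2, PSMB3 and UBE2O were among those that lost their call, while PSMB10 had -1.03 (adjusted p = 0.000127) and PSMB8 -0.99 (adjusted p = 0.00350). Within the time 0 arrays, the 2 with the higher poly-A level (females 6 and 10) averaged 10.4 for PSMB10 and the other 8 averaged 9.90; at 9 months the arrays of lower and higher poly-A level averaged 9.12 and 9.15.

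The pigs measured at both times gave negative values for all catalytic subunits, with different sizes. In female 8, PSMB10 went from 10.28 to 9.07, a change of -1.21, and PSMB8 from 11.97 to 10.97, a change of -1.01. In male 25, PSMB10 went from 9.44 to 9.36, a change of -0.08, and PSMB8 from 11.17 to 10.47, a change of -0.70. Male 25 had the lowest time 0 value of both genes and, for PSMB10, the highest value of the 12 arrays of 9 months, 9.36. PSMB5, PSMB6 and PSMB7 changed by -0.58, -0.61 and -0.04 in female 8 and by -0.08, -0.18 and -0.02 in male 25. Over the 62 genes, 46 were lower in female 8 (median -0.24) and 44 in male 25 (median -0.10). The medians over all probe sets were 0.01 in female 8 and -0.01 in male 25. With 1 pig of each sex there was no test.

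No gene of the set passed in any comparison of the diets, and neither did any other probe set, so the background share was 0% in each. Other settings called none of the 62 genes, but for high-fat against control they called up to 68 of all probe sets (with array weights; 18 with 8 group means, 2 with the compared groups alone). High-fat against control at 9 months gave differences from -0.36 to 0.39, with a median of 0.03 against a value close to 0 over all probe sets. Here 3 of the 62 genes and 1562 of all probe sets had an unadjusted p under 0.05, and the smallest limma adjusted p of a member was 0.360. The median standard error was 0.11, which sets the size of difference that 4 arrays a group can show.

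None of the catalytic subunits passed. High-fat against control was 0.02 (SE 0.22) for PSMB8, -0.03 (SE 0.16) for PSMB10, 0.19 (SE 0.13) for PSMB5, 0.18 (SE 0.11) for PSMB6 and 0.00 (SE 0.09) for PSMB7, with limma adjusted p from 0.694 to 0.996. PSMD10, a chaperone of the ATPase ring, had the smallest p among the higher values. It read 8.56, 8.47, 8.31 and 8.49 in controls and 8.56, 8.66, 8.95 and 8.69 on the high-fat diet, a difference of 0.26 (SE 0.09, limma adjusted p = 0.360), with the groups meeting at 8.56. PSMD11, a lid subunit, read 10.63, 10.78, 10.56 and 10.70 against 10.86, 10.82, 10.95 and 11.03, a difference of 0.25 (SE 0.10, limma adjusted p = 0.471) with no overlap. PSMD11 was the 1 of the 62 genes without overlap, and that share over all probe sets was not counted. PSMA1 had 0.19 (limma adjusted p = 0.559).

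In the other direction, UBE2E2 read 8.01, 7.81, 8.08 and 7.84 in controls and 7.81, 7.42, 7.37 and 7.68 on the high-fat diet. The difference of -0.36 (SE 0.14) had a limma adjusted p of 0.439. UBE2F had -0.23 (limma adjusted p = 0.637), and UBE2J2, an enzyme of the endoplasmic reticulum, -0.13 (limma adjusted p = 0.768). The 8 measured monocyte markers were all negative in this comparison, with a median of -0.50 and none called.

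Resveratrol with high-fat was set against high-fat alone, which shares the high-fat arrays with the comparison above. Differences ran from -0.29 to 0.32, with a median of 0.04 against 0.02 over all probe sets, and 3 genes of the set and 1143 probe sets had an unadjusted p under 0.05. The smallest limma adjusted p of a member was 0.728, for UBE2R2, which works with cullin ligases. UBE2R2 read 8.30, 8.21, 8.38 and 8.41 on the high-fat diet and 8.05, 8.08, 7.75 and 8.28 with resveratrol, a difference of -0.29 (SE 0.10), and male 5 kept the groups from parting. PSMA1 (-0.21) and UBE2D3 (-0.20) followed among the lower values, and UBE2J2 (0.24), PSME3 (0.32) and UBE2F (0.19) were the highest-ranked positive ones, with limma adjusted p from 0.736 to 0.840. PSMB8 had -0.08 (SE 0.22), PSMB10 0.09 (SE 0.16) and PSMB5 0.15 (SE 0.13).

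Resveratrol with high-fat against control at 9 months again gave no call, with a median of 0.06 against 0.01 over all probe sets. Unadjusted, 4 genes of the set and 664 probe sets had a p under 0.05, and all members had a limma adjusted p of 1.00. PSMB5 had the widest positive difference, 0.33 (SE 0.13), and its 4 resveratrol arrays, 9.55 to 9.77, lay just above its 4 control arrays, 9.04 to 9.54. PSME2 (0.19, SE 0.12) and PSMD10 (0.25, SE 0.09) also had no overlap, PSME4 had 0.23 (SE 0.10), and UBE2R2 lay wholly below at -0.27 (SE 0.10). UBE2E2 (-0.17) and UBE2A (-0.12) were the next lower values. In this comparison 3 of the 62 genes lay wholly above and 1 wholly below, and that share over all probe sets was not counted. PSMB8 had -0.06 (SE 0.22) and PSMB10 0.06 (SE 0.16).

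**Figure D4:**
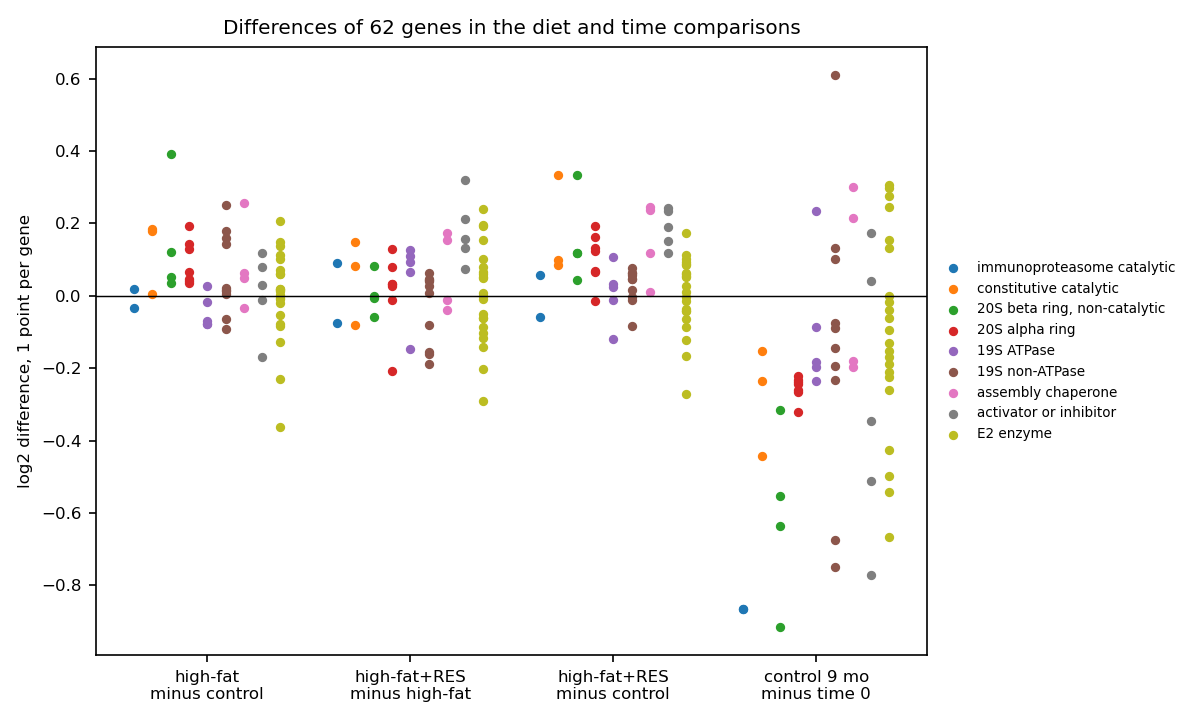
Log2 difference of each of the 62 genes (points, by role) in the 3 diet comparisons and in 9-month controls against time 0. Diet differences lie between -0.36 and 0.39 and none passes the test, while the time differences reach -0.92, with 25 genes lower and 7 higher.

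Whether fat acted differently in the sexes was tested as a difference of differences, with 2 arrays in each group. None of the 62 genes passed, against 0.00580% of all probe sets. Of the 62, 9 had an unadjusted p under 0.05 and 46 had a negative value, that is, a lower high-fat effect in females, with a median of -0.18 against -0.01 over all probe sets. The 3 with the smallest p among them were UBE2D3 (-0.51, SE 0.16), PSMC6 (-0.49, SE 0.17) and PSMA1 (-0.41, SE 0.16), each with a limma adjusted p of 0.397. UBE2M (0.63, SE 0.26), PSMD3 (0.30) and UBE2Q1 (0.21) led the positive values. All 7 alpha ring genes were negative and both immunoproteasome genes positive, at 0.40 (SE 0.43) for PSMB8 and 0.05 (SE 0.25) for PSMB10.

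Between the sexes at time 0, PSMB10 was the 1 gene of the set that passed, while 1.07% of all probe sets did, 0.493% higher and 0.574% lower in females. Females read 10.18, 10.28, 10.58, 10.00 and 10.16 and males 9.87, 9.64, 9.96, 9.83 and 9.44, so every female lay above every male. The difference was 0.49 (SE 0.11, limma adjusted p = 0.0428). Leaving out single arrays gave limma adjusted p from 0.0201 to 0.118, and the call was lost without female 6, 8 or 10 or male 11, 12, 24 or 25. It was also lost in a fit of the time 0 arrays alone (limma adjusted p = 0.130). Spike-in sets were formed here by cutting the poly-A level at its largest gap, separately within each time. With this set as a block the PSMB10 call was lost too (0.40, limma adjusted p = 0.293). It was lost as well within the 8 time 0 arrays of lower poly-A level (0.40, limma adjusted p = 0.225). Females 6 and 10 make up the other time 0 set.

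At 9 months the sexes were not apart for PSMB10. The 6 females ran from 9.02 through 9.07 to 9.11 and the 6 males from 8.99 through 9.23 to 9.36, a difference of -0.13 (SE 0.10, limma adjusted p = 0.515). The sex difference at time 0 minus that at 9 months was itself tested and was 0.62 (SE 0.15, limma adjusted p = 0.0203). Over all probe sets 7.34% passed that test, 3.89% with a positive and 3.45% with a negative value. With the spike-in set as a block it was 0.55 and the PSMB10 call was lost (adjusted p = 0.0601). PSMB8 had a sex difference of 0.31 (SE 0.19) at time 0 and 0.39 (SE 0.18) at 9 months, neither passing, and their difference was -0.08 (SE 0.26, limma adjusted p = 0.895). PSMB6 had 0.14 at time 0, -0.22 at 9 months and 0.37 (SE 0.11, limma adjusted p = 0.0524) between them. In the same test 8 of 14 measured interferon response genes passed with a positive value, with a median of 1.39. Of 8 monocyte markers 3 passed with a positive value, and of 9 T cell markers 3 with a negative one. Their part in the PSMB10 value was not tested.

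UBE2V2 ran the other way. At time 0 its females ran from 10.56 to 10.76 and its males from 10.70 to 11.00, a difference of -0.23 (SE 0.07, limma adjusted p = 0.118). At 9 months females ran from 11.11 to 11.29 and males from 10.73 to 11.26. The sex difference at time 0 minus that at 9 months was -0.35 (SE 0.10, limma adjusted p = 0.0408). That call was lost without any 1 of 15 of the 22 arrays. PSMD12 (-0.30, limma adjusted p = 0.0751) and UBE2B (-0.23, limma adjusted p = 0.157) were also lower in females at time 0 without passing, and in UBE2B the sexes did not overlap. At time 0, 2 of the 62 genes, among them PSMB10, lay wholly higher in females and 1 wholly lower. That share over all probe sets was not counted.

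At 9 months UBE2D4 was the 1 gene that passed between the sexes, against 6.01% of all probe sets, 3.07% higher and 2.94% lower in females. UBE2D4 belongs to an E2 family that serves many ubiquitin ligases. Females read 8.08 and 8.15 in controls, 8.34 and 7.93 on the high-fat diet and 8.54 and 8.44 with resveratrol; males read 8.10 and 7.78, 7.84 and 7.80, and 7.69 and 7.86. The groups overlapped, with the control male 16 above 2 of the females, and the difference was 0.40 (SE 0.11, limma adjusted p = 0.0352). The mean of the UBE2D4 probe sets gave 0.27 (adjusted p = 0.155), and the call was lost without any 1 of 9 of the 12 arrays. PSMB6 (-0.22, limma adjusted p = 0.0823), UBE2H (-0.25, limma adjusted p = 0.122) and PSMA6 (-0.19, limma adjusted p = 0.173) led the values lower in females. Cell markers differed between the sexes at 9 months as well: lower in females were 3 of 8 monocyte markers (median -0.48), 2 of 5 granulocyte markers (median -0.71) and 2 of 3 erythroid markers (median -1.66), and higher were the 1 B cell marker (0.97) and 1 of 9 T cell markers. Their part in these sex differences was not tested.

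**Figure D5:**
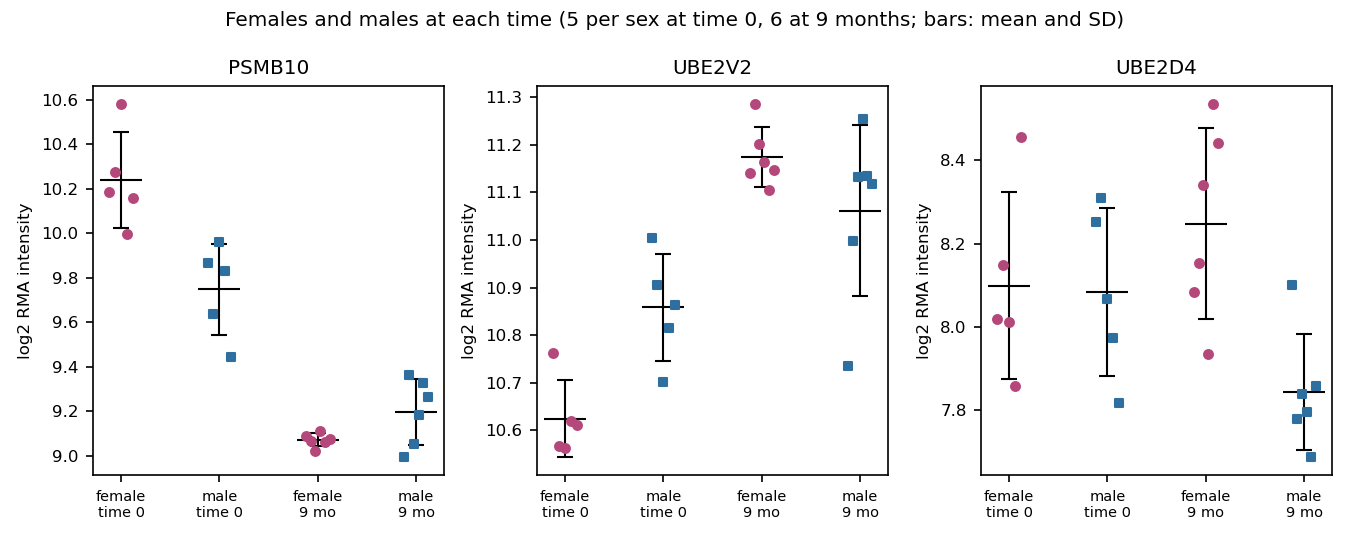
Log2 intensity of PSMB10, UBE2V2 and UBE2D4 in females and males at time 0 (5 each) and at 9 months (6 each, 3 diets together), with mean and SD. PSMB10 parts by sex at time 0 (10.00 or more in females, 9.96 or less in males) and overlaps at 9 months.

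Since interferon is the known inducer of PSMB8, PSMB10, PSME1 and PSME2, each was set against the mean of the 14 interferon response genes, separately within the 10 arrays of time 0 and the 12 of 9 months, 8 relations in all. PSMB10 at time 0 had Pearson's r = 0.82 (permutation p = 0.00414, 0.0331 adjusted over the 8) and Spearman's rho = 0.71 (permutation p = 0.0263, 0.105 adjusted). Without the 2 arrays farthest from the median of the interferon mean, r was 0.63. Both measures were higher in females, in whom the interferon mean ran from 8.96 to 9.89 against 8.17 to 9.23 in males, and the relation within a sex was not computed. The other 7 relations had adjusted permutation p from 0.0669 to 0.191 for r. Their r ran from 0.57 to 0.72 for PSMB8, PSME1 and PSME2 at time 0, and at 9 months it was -0.65 for PSMB8, 0.44 for PSMB10, -0.42 for PSME1 and 0.54 for PSME2.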

How the data were processed

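Each array has 1 deposited intensity per probe set, an RMA value kept on the linear scale. The authors used GCOS, RMA and Affymetrix Expression Console 1.1, per the submitters' processing notes. Here log2 was taken after a floor of 1. Of 24123 probe sets, 124 controls were set aside, and 17240 with a log2 value above 5 in at least 2 arrays were tested. Symbols came from the platform annotation; 62 of the 63 genes matched the Sscrofa11.1 gene table by Entrez ID, and 0 symbols changed.

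Tests were two-sided with limma 3.58.1 (R 4.3.3, statmod 1.5.0), Benjamini-Hochberg adjusted over all tested probe sets, at 0.05. Conditions were compared in a fit of 22 arrays with condition and additive sex, and sexes in a fit of 8 group means. The step was tested on simulated data. Correlations used 100000 resamples. The number of arrays limits the precision.

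The genes and lists were chosen with earlier results of these data known. Genes were named by role, or as those passing (at most 10 a direction), or otherwise the 3 with the smallest p in each direction; further genes were added for their role after their values were seen. A search for genes most like PSMB9 and PSMB10 was left out, since the arrays part by time. The index uses PSMB8 and PSMB10, as PSMB9 was not analysed here.

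Profiles of pigs 8 and 25 at both times, centred on their groups, correlated at -0.06 and 0.20, so the pairing rests on the labels. Alternatives covered the model of sex, the arrays fitted, filters, scaling, floor, array weights, pig as a block, probe sets, spike-in level and leaving out each array.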

Additional observations from a re-analysis of the deposited data

Results flagged for a closer look

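The gap of an extreme array to its nearest neighbour was large against the range of its condition in 6 of 156 groups (39 named genes in 4 conditions); chance alone gives about 1 in 20. At time 0, female 6 was lowest for PSMB3 (8.16, next 8.96) and for PSMB5 (9.03, next 9.46), and female 8 was lowest for UBE2W (7.57, next 7.86). In the 9-month controls, male 16 was lowest for UBE2W at 7.86 (next 8.23). On the high-fat diet, female 30 was highest for UBE2F at 7.35 (next 7.11), and with resveratrol male 5 was highest for UBE2B at 10.63 (next 10.40).

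The sex difference, female minus male, was not the same at time 0 and 9 months for PSMB10 and UBE2V2, each by the test of that difference. Its value at time 0 minus that at 9 months was 0.62 for PSMB10 and -0.35 for UBE2V2.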

How the results depend on the processing

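In no setting or single-array omission did any of the 62 genes pass in a diet comparison or in the high-fat effect by sex. For time, counts higher were 2 with the spike-in level as a covariate (20 lower) and 11 with the 3 diets averaged, chosen after seeing the data; lower calls stayed between 20 and 32. Without single arrays, 4 to 8 were higher (4 without control female 8, female 18 or male 25) and 18 to 28 lower. PSMC2 turned to -0.16 with its probe sets averaged. For sex at time 0, counts higher were 0 in the compared groups alone, with the spike-in set as a block or level as a covariate, and in the larger spike-in set (chosen after seeing the data); without single arrays, 0 to 2 were higher and 0 to 1 lower. For sex at 9 months, 2 were higher with a stricter filter or array weights, 0 with probe sets averaged and 3 with the spike-in covariate; without single arrays, 0 to 4 higher and 0 to 2 lower. For the sex difference at time 0 minus that at 9 months, a stricter filter gave 2 higher and 2 lower, and quantile normalization 3 higher. The spike-in block gave 0 and 0, the spike-in covariate 2 lower, and no filter or median-centring 0 lower. Without single arrays, 1 to 5 were higher and 0 to 4 lower. Causes were not tested.

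With pig as a block, 5 genes were higher and 25 lower for time, 30 of the 32 calls shared, and the pairing changed no count of sex or diet calls. The spike-in sets were cut from the poly-A level within each time and are not a labelled batch. They are thus nested in time by construction, and that block could not be fitted for the time comparison. All index differences moved by less than 1 SD. The number of arrays and signal near background limit what could be seen.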
